A study of Mus musculus with 2 samples.

Results

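The CXCR3 axis consists of the chemokines Cxcl9 and Cxcl10 and their receptor Cxcr3, and the CXCR6 axis of the chemokine Cxcl16 and its receptor Cxcr6. These 5 genes, of the 27998 in the count matrices, were chosen by name. Their UMIs (unique molecules counted) were summed per cell type label and per library. The cells were CD45+ DAPI− leukocytes, isolated from tumours of YUMM1.7, a mouse melanoma line that grew under the flank skin of knock-in mice. The APOE4 group carried the human APOE4 allele and the APOE2 group the human APOE2 allele, and both received 100000 tumour cells in Matrigel and were sampled on day 19. Each genotype was read as 1 droplet library, into which 10000 sorted cells from each of 6 mice had been pooled, with 5000 cells targeted. All hosts carried a human APOE allele, and no group with the mouse gene enters the comparison. Because the mice were pooled, the libraries have no replicates. No p-value was computed, the bracketed 95% intervals cover counting error only, and every ratio compares these 2 libraries and not the genotypes.

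CXCL9 and CXCL10 are secreted chemokines that myeloid cells make in response to interferons, and they attract cells that carry CXCR3, chiefly activated T cells, NK cells and plasmacytoid dendritic cells. CXCL16 is made as a membrane-anchored chemokine that also binds oxidised lipoprotein, and the protease ADAM10 can release it from the surface. Its receptor CXCR6 marks activated and tissue-resident T cells, NKT cells and some NK cells, and contact with CXCL16 on dendritic cells is known to sustain cytotoxic T cells in mouse tumours.

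On the mm10 build, Cxcl9 (ENSMUSG00000029417) lies on chromosome 5 from 92321347 to 92328079 and Cxcl10 (ENSMUSG00000034855) on the same minus strand from 92346638 to 92348889, with 18558 bases between them. Cxcl16 (ENSMUSG00000018920) lies on the minus strand of chromosome 11 from 70453983 to 70459984, Cxcr3 (ENSMUSG00000050232) on the minus strand of chromosome X from 101731535 to 101734269, and Cxcr6 (ENSMUSG00000048521) on the plus strand of chromosome 9 from 123806475 to 123811760. All 5 are annotated as protein-coding. The promoters of the neighbouring ligands are shown because both genes were higher in the APOE4 library while their levels by label differed. They are the 250 bases upstream of each start, from RefSeq on GRCm38.p6, read 5′ to 3′ on the minus strand, at chr5:92328080-92328329 for Cxcl9 and chr5:92348890-92349139 for Cxcl10. Capitals mark matches to the interferon-stimulated response element letters (GAAA, any 2 bases, GAAA) and to the NF-kB letters (GGGA, any 3 bases, TCC), searched on both strands.
Cxcl9: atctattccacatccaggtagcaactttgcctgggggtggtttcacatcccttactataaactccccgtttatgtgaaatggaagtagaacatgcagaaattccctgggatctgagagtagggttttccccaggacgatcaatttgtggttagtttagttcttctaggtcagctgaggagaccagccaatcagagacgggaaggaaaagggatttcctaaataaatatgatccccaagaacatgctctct
Cxcl10: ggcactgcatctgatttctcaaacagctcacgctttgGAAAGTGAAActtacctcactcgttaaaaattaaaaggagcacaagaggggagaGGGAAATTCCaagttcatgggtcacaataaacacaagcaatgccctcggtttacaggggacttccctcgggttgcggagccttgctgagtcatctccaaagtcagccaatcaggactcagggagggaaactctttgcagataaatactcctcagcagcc
Cxcl10 held the interferon-stimulated letters from 213 to 204 bases upstream of its start and the NF-kB letters from 159 to 150 bases upstream. In this window Cxcl9 held neither, nor the gamma-activated site letters TTCNNNGAA. The search took only these exact letters, so a missing match does not show that a promoter lacks an element that responds to interferon. Of the 32851 promoters in the table, 2.98% held the interferon-stimulated letters, 3.86% the NF-kB letters and 7.02% the gamma-activated site letters. The promoters of Cxcr3 and Cxcr6 held the letters of none of the 3 motifs, nor the T-box letters GGTGTGA, which 3.33% of promoters held.

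The APOE4 library had 5689 barcodes and 37349222 UMIs, and the APOE2 library 5063 barcodes and 41207514 UMIs. The authors annotated 5385 APOE4 cells and 4665 APOE2 cells with 26 labels, at a median of 5560 UMIs per cell in APOE4 and 7160 in APOE2. The libraries shared 9 barcodes, 8 of them annotated in both, and leaving those out moved none of the 5 library ratios outside its interval. Levels are given in CPM, the gene's UMIs divided by all UMIs of the cells named and multiplied by 1000000. The reads come from the 3′ end of transcripts, so levels of different genes are not scaled by length, yet capture can differ between genes and no order of genes by level is drawn.

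Over all annotated cells, 4 of the 5 genes were higher in the APOE4 library and Cxcl16 was nearly level. Cxcl9 stood at 346 CPM in APOE4 and 89.7 CPM in APOE2, a ratio of 3.86 [3.72, 4.01]. Cxcl10 stood at 773 CPM in APOE4 and 196 CPM in APOE2, a ratio of 3.95 [3.85, 4.06]. The receptor Cxcr6 had a like ratio, 4.16 [3.85, 4.51], with 83.1 CPM in APOE4 and 19.97 CPM in APOE2. Those 3 ratios were each past 2-fold, as were those of 4.51% of all 13978 genes tested on the higher side and 4.03% on the lower side. Cxcr3 stood at 38.4 CPM in APOE4 and 21.9 CPM in APOE2, a ratio of 1.75 [1.61, 1.91] that did not reach 2-fold. Cxcl16 stood at 322 CPM in APOE4 and 310.1 CPM in APOE2, a ratio of 1.04 [1.01, 1.07]. The median gene had a ratio of 1.02. A sum over cells cannot tell more cells of a type from more RNA per cell, so the labels were taken in turn.

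The share of cells with a UMI differed between the ligands. After each cell was thinned to 1500 UMIs, which left out 340 shallower APOE4 cells and 348 APOE2 cells, 9.93% of APOE4 cells and 2.55% of APOE2 cells held Cxcl9. Cxcl10 was seen in 18.1% of APOE4 cells and 7.57% of APOE2 cells, and Cxcl16 in 20.7% of APOE4 cells and 25.6% of APOE2 cells. Without thinning, Cxcl9 was seen in 13.9% of APOE4 cells and 4.46% of APOE2 cells, Cxcl10 in 26.8% of APOE4 cells and 12.8% of APOE2 cells, and Cxcl16 in 33.9% of APOE4 cells and 46.1% of APOE2 cells. Cxcl9 was the most concentrated gene in the APOE2 library, where 50% of its UMIs lay in 16 cells, against 92 cells in APOE4. For Cxcl16 that many UMIs took 401 APOE4 cells and 479 APOE2 cells.

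Cxcl9 came mainly from monocytes and macrophages. Monocytes 2 had 526 APOE4 cells and 206 APOE2 cells, with monocyte markers at a summed 12488 CPM in APOE4 and 6777 CPM in APOE2 and macrophage markers at 2298 CPM in APOE4 and 5544 CPM in APOE2. It held 40.5% of Cxcl9 UMIs in APOE4 and 42.03% in APOE2. Cxcl9 and Cxcl10 rank 8 and 2 by fold among the genes that set this label apart from all other cells. They may thus have helped to draw the label, so its ligand level cannot be taken as an independent finding. Mø cluster 1, which carried all 6 macrophage markers (Apoe, the gene replaced in these mice, is 1 of them) at a summed 13018 CPM in APOE4 and 14869.6 CPM in APOE2, held 16.0% of the UMIs in APOE4 and 15.9% in APOE2. The Diverse label came next in APOE4 with 11.8%, against 7.75% in APOE2. In the APOE2 library the third place belonged to Monocytic DCs, with 12.2% against 1.92% in APOE4, and 1 cell there held 192 of the 428 UMIs. The genes that set Monocytic DCs most apart by fold included cell cycle genes such as Foxm1, Bub1 and Plk1. Whether the cells of that label were dendritic was not tested.

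**Figure D1:**
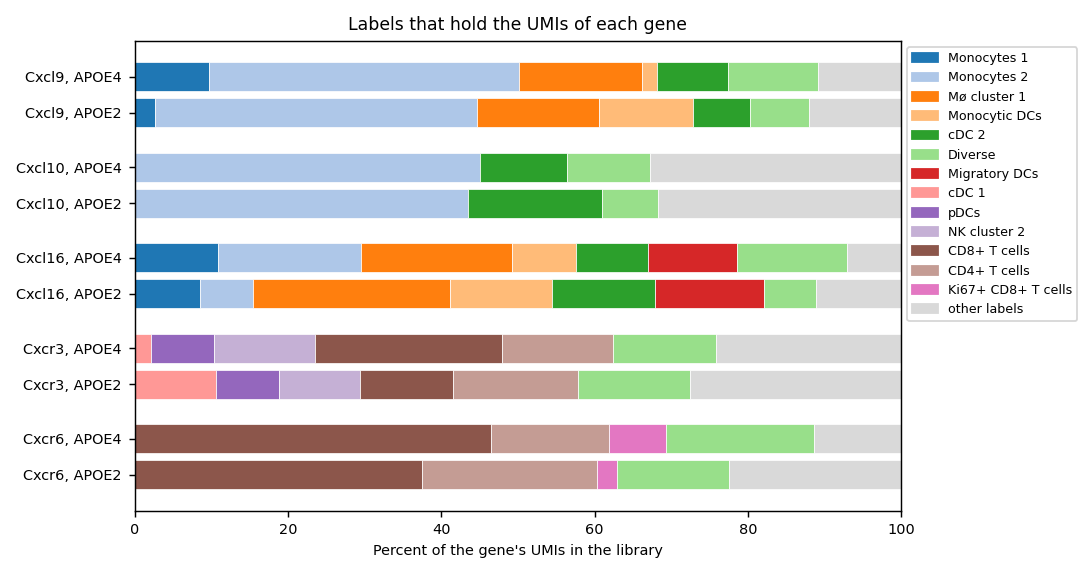
Percent of each gene's UMIs (horizontal axis) that came from each label, in the APOE4 library (upper bar of each pair) and the APOE2 library (lower bar). Labels that reached 7% of a gene's UMIs in either library are coloured, and grey holds all others. Monocytes 2 gave 40.5% of Cxcl9 UMIs in APOE4 and 42.03% in APOE2, and CD8+ T cells 46.5% of Cxcr6 UMIs in APOE4 and 37.5% in APOE2.

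The highest Cxcl9 level was that of Monocytes 2, with 1303 CPM in APOE4 and 928 CPM in APOE2, a ratio of only 1.40 [1.32, 1.49]. Mø cluster 1 stood at 768 CPM in APOE4 and 103 CPM in APOE2, a ratio of 7.43 [6.76, 8.18], and Monocytes 1 at 461 CPM in APOE4 and 29.8 CPM in APOE2, a ratio of 15.5 [12.5, 19.4]. Both ratios were above that of Monocytes 2, with intervals apart from it. Among dendritic cells, which present antigen to T cells, cDC 2 stood at 377 CPM in APOE4 and 59.9 CPM in APOE2, a ratio of 6.29 [5.49, 7.22]. cDC 1 stood at 307 CPM in APOE4 and 81.5 CPM in APOE2, and Migratory DCs at 294 CPM in APOE4 and 77.3 CPM in APOE2. In APOE4 the intervals of Monocytes 1 and Diverse overlapped, as did those of cDC 1 and Migratory DCs. In APOE2 those of Diverse, Mø cluster 1 and Monocytic DCs overlapped each other in turn.

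Of the 15 labels with at least 20 cells in each library and at least 20 UMIs of Cxcl9 over both, 12 were at least 2-fold higher in APOE4, none was at least 2-fold lower, and 3 lay between (the 2 labels without any UMI in APOE2 entered as lower bounds against a floor of 3 counts). Over all genes and labels taken in the same way, 3.93% were at least 2-fold higher and 3.27% at least 2-fold lower. The 3 labels within 2-fold were Monocytes 2, Monocytic DCs (98.5 CPM in APOE4 and 99.9 CPM in APOE2) and Stromal cells (72.3 CPM in APOE4 and 71.4 CPM in APOE2, a ratio of 1.01 that was 6.16 in thinned cells). The widest ratio, in pDCs, set 150 UMIs in APOE4 against 1 in APOE2, and 1 APOE4 cell held 95 of them. Some of the 12 rested on few cells. Without the 5 highest cells, pDCs, CD4+ T cells and M-MDSC 2 each kept 1 APOE4 UMI, and Ki67+ CD8+ T cells kept 0. The 5 APOE4 Ki67+ CD8+ T cells with Cxcl9 all held the myeloid genes Lyz2 or Csf1r, against 30.4% of those without it. Mø cluster 2 stood at 87.1 CPM in APOE4 and 3.34 CPM in APOE2, from 140 UMIs in APOE4 and 14 in APOE2. Lymphocyte labels were near the bottom in both libraries, and CD8+ T cells held 3 UMIs in APOE4 and 0 in APOE2.

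Few cells carried much of this RNA. In Monocytes 2, after thinning, 35.2% [31.1, 39.4] of APOE4 cells and 20% [14.8, 26.1] of APOE2 cells held Cxcl9, or 46.2% in APOE4 and 26.2% in APOE2 without thinning. The background was read in the label with the lowest level among those of at least 50 cells in each library, here CD8+ T cells, which in APOE2 were 1 of 4 such labels without a Cxcl9 UMI. CD8+ T cells had 1 such cell of 472 in APOE4 and 0 of 111 in APOE2, which allows up to 2.70%, the limit for a count of 0 being taken as 3 counts. Median depth was 6940.0 UMIs in APOE4 Monocytes 2 and 6864 in APOE2 Monocytes 2, against 3456 in APOE4 CD8+ T cells and 3530.0 in APOE2 CD8+ T cells. In Mø cluster 1 the thinned shares were 27.8% [22.2, 33.8] in APOE4 and 4.39% [2.74, 6.64] in APOE2, with intervals that did not overlap. The top 10% of Monocytes 2 cells held 63.7% of the label's Cxcl9 UMIs in APOE4 and 90.1% in APOE2, and the top 5 cells 10.3% in APOE4 and 46.9% in APOE2. Without those 5 cells of each library the ratio in Monocytes 2 was 2.32, that of Mø cluster 1 without its own 5 was 12.7, and that of Monocytes 1 was 45.8. For cDC 2, cDC 1 and Migratory DCs the same step gave 12.3, 9.92 and 7.31, for Diverse 26.6, and for Monocytic DCs 8.01. Among these labels the APOE2 UMIs left were fewest in Migratory DCs, 16, and Monocytic DCs, 17. The step takes the cells highest in the gene itself, so it costs more where fewer cells hold the gene. Cells with Cxcl9 numbered 99 in APOE4 and 15 in APOE2 Monocytes 1, and 94 in APOE4 and 37 in APOE2 Mø cluster 1. Wider ratios after this step, here and below, can follow from the step itself and are no check of the gap.

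**Figure D2:**
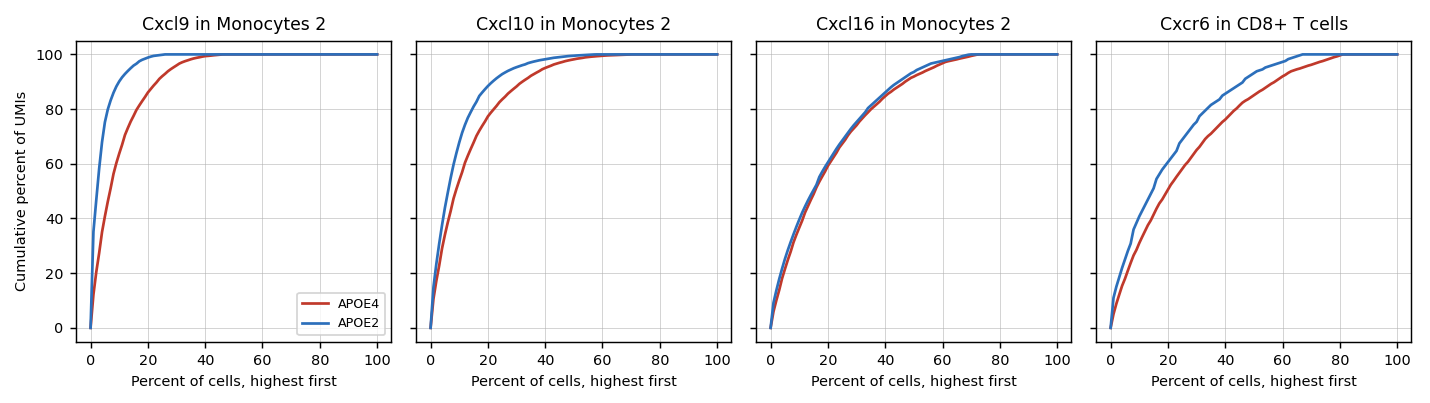
Cumulative percent of a gene's UMIs (vertical axis) against the percent of a label's cells, ordered from the cell with most UMIs (horizontal axis), for the APOE4 library (red) and the APOE2 library (blue). The Cxcl9 and Cxcl10 curves of Monocytes 2 climb later in APOE4, where the top 10% of cells held 63.7% of Cxcl9 UMIs, than in APOE2, where it held 90.1%, while the Cxcl16 curves lie close together.

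Cxcl10 had a wider range of sources than Cxcl9. Monocytes 2 held 45.1% of its UMIs in APOE4 and 43.5% in APOE2, cDC 2 11.3% in APOE4 and 17.4% in APOE2, and Diverse 10.9% in APOE4 and 7.35% in APOE2. The 3 labels with the highest level were M-MDSC 2, Monocytes 2 and NK cluster 1, in that order in APOE4, and in APOE2 with M-MDSC 2 last. M-MDSC 2, whose cells carried all 5 neutrophil markers at a summed 44257 CPM in APOE4 and 42670.5 CPM in APOE2, stood at 3570 CPM in APOE4 and 946 CPM in APOE2, a ratio of 3.77 [2.91, 4.99]. This label had only 36 APOE2 cells with 59 Cxcl10 UMIs, and without the 5 highest cells of each library 811 UMIs were left in APOE4 and 3 in APOE2. Monocytes 2 stood at 3232 CPM in APOE4 and 2096 CPM in APOE2, a ratio of 1.54 [1.48, 1.60].

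NK cluster 1 set itself apart among lymphocytes. It stood at 2265 CPM of Cxcl10 in APOE4 and 1570 CPM in APOE2, a ratio of 1.44 [1.28, 1.63], while NK cluster 2, with 631 APOE4 cells and 214 APOE2 cells, had 46.0 CPM in APOE4 and 49.8 CPM in APOE2. Both labels carried all 4 NK markers. Thinned shares of cells with Cxcl10 were 58.0% [48.3, 67.3] in APOE4 and 45.5% [28.1, 63.6] in APOE2 for NK cluster 1, and 4.54% in APOE4 and 2.93% in APOE2 for NK cluster 2. G-MDSC 1, the label of at least 50 cells in each library with the lowest level, had 1 such cell of 103 in APOE4 and 0 of 100 in APOE2, at median depths of 1781.5 UMIs in APOE4 and 1704 in APOE2, while NK cluster 1 had 4160.0 UMIs in APOE4 and 5359 in APOE2. The myeloid genes Lyz2 or Csf1r were seen in 18.9% of the NK cluster 1 cells with Cxcl10 and 17.9% of those without it in APOE4, and in 25.0% of those with it and 22.2% of those without it in APOE2. Cxcl10 ranked 80 of 1121 genes by fold in this label, and 88 of 655 in M-MDSC 2, so it may have helped to draw them too. Which genes the authors' clustering used was not tested. NK cluster 1 held 33 APOE2 cells, and without the 5 highest cells of each library its ratio was 3.48.

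Of 21 labels with enough UMIs, 15 had Cxcl10 at least 2-fold higher in APOE4, none at least 2-fold lower and 6 between. Over these labels, a median of 3.52% of all genes were at least 2-fold higher, from 1.92% in Monocytes 2 to 14% in M-MDSC 2. The 6 labels between were Monocytes 2, NK cluster 1, NK cluster 2, CD8+ T cells, CD4+ T cells and Mø cluster 2, the last with 62.2 CPM in APOE4 and 52.2 CPM in APOE2. The widest ratio was in Monocytes 3, at 591 CPM in APOE4 and 14.1 CPM in APOE2, or 42.03-fold [24.4, 79.3]. cDC 2 stood at 1023 CPM in APOE4 and 308 CPM in APOE2, a ratio of 3.33 [3.12, 3.55]. Mø cluster 1 stood at 327 CPM in APOE4 and 58.4 CPM in APOE2, a ratio of 5.61 [4.922, 6.404]. In CD8+ T cells, with 335 CPM in APOE4 and 255 CPM in APOE2, the ratio of 1.31 became 0.802 in thinned cells and 9.20 without the 5 highest cells of each library, which left 368 UMIs in APOE4 and 10 in APOE2. That last step gave 2.56 in CD4+ T cells and 3.88 in NK cluster 2, the second from 72 UMIs in APOE4 and 8 in APOE2. In Monocytes 3 it left 487 UMIs in APOE4 and 0 in APOE2. Stromal cells, a label with all 4 stromal markers and a Ptprc (CD45) level of 59.2 CPM in APOE4 and 42.2 CPM in APOE2, stood at 654 CPM of Cxcl10 in APOE4 and 141 CPM in APOE2. There 1 APOE4 cell held 529 of the 795 UMIs, and the ratio of 4.65 fell to 1.89 without the 5 highest cells of each library.

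**Figure D3:**
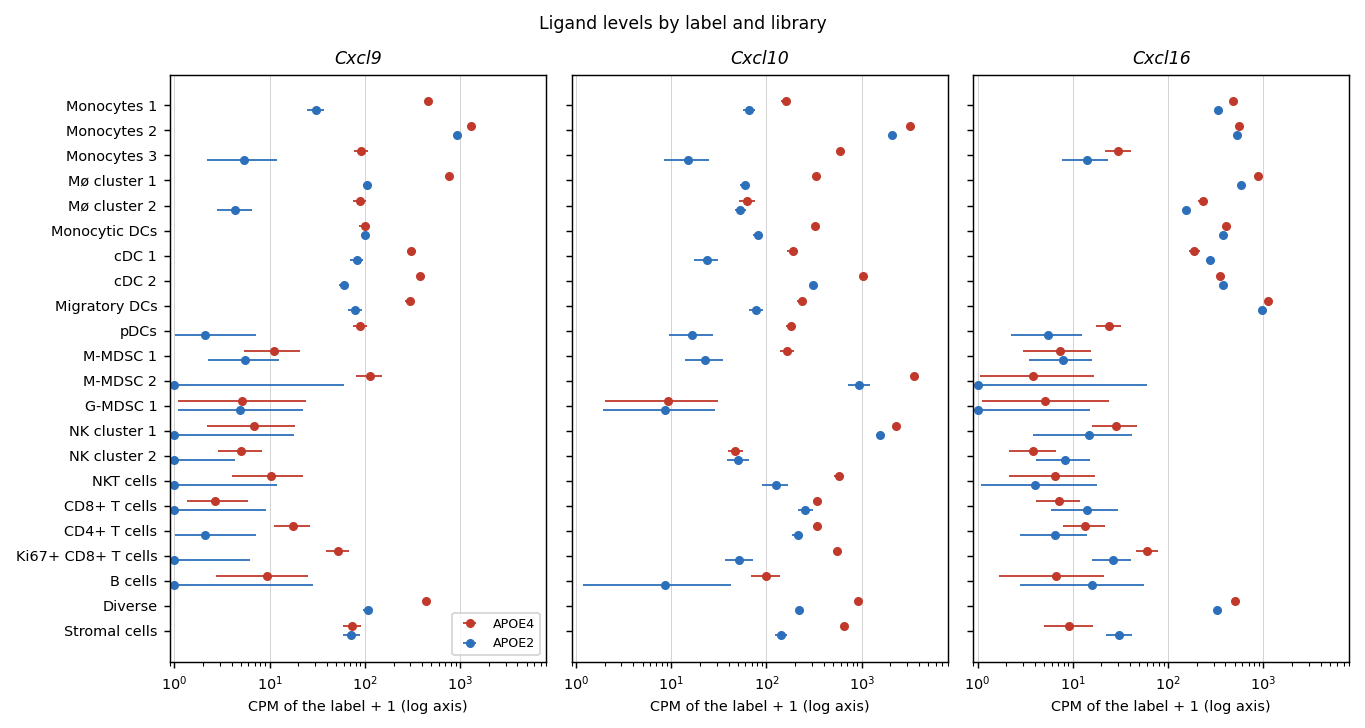
Levels of Cxcl9, Cxcl10 and Cxcl16 (horizontal axis, CPM of the label plus 1, log scale) in 22 labels, for the APOE4 library (red, upper point of each pair) and the APOE2 library (blue, lower point). Bars are exact Poisson 95% intervals. Cxcl9 and Cxcl10 points are mostly further right in APOE4, with the smallest gaps in labels such as Monocytes 2, whereas Cxcl16 points lie close together in the myeloid labels that hold most of it.

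Cxcl16 was spread over nearly all mononuclear phagocytes and showed little of the gap of the CXCR3 ligands. Mø cluster 1 held 19.6% of its UMIs in APOE4 and 25.7% in APOE2, Monocytes 2 18.7% in APOE4 and 6.96% in APOE2, Diverse 14.4% in APOE4 and 6.82% in APOE2, and Migratory DCs 11.6% in APOE4 and 14.2% in APOE2. Monocytic DCs and cDC 2 held 8.45% and 9.36% in APOE4 and 13.3% and 13.4% in APOE2. The highest level was in Migratory DCs, which carry antigen to lymph nodes, with 1131 CPM in APOE4 and 963 CPM in APOE2, a ratio of 1.17 [1.09, 1.26]. Their 4 markers, Ccr7 among them, summed to 8450 CPM in APOE4 and 8685 CPM in APOE2. Mø cluster 1 stood at 875 CPM in APOE4 and 577 CPM in APOE2, a ratio of 1.52 [1.44, 1.60], and Monocytes 2 at 559 CPM in APOE4 and 531 CPM in APOE2, a ratio of 1.05 [0.971, 1.14].

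Within that range the labels went both ways. Monocytes 1 stood at 482 CPM in APOE4 and 332 CPM in APOE2, a ratio of 1.45 [1.34, 1.58], and Mø cluster 2 at 230.2 CPM in APOE4 and 154 CPM in APOE2, a ratio of 1.49 [1.31, 1.70]. cDC 1 (known for cross-presenting tumour antigen) was lower in APOE4, with 187 CPM against 272 CPM in APOE2, a ratio of 0.689 [0.586, 0.809]. cDC 2 had 353 CPM in APOE4 and 374 CPM in APOE2, with an interval that included 1. Of 14 labels, 4 were at least 2-fold higher in APOE4 (Ki67+ CD8+ T cells, Monocytes 3, pDCs and CD4+ T cells) and 1 at least 2-fold lower (Stromal cells). All 5 of these labels were low in Cxcl16, with at most 58 UMIs in either library, and none held as much as 0.5% of its UMIs. Over the 14 labels, a median of 3.1% of all genes (from 1.92% to 4.99%) were at least 2-fold higher. In Stromal cells 3.3% of all genes were at least 2-fold lower. The Stromal ratio of 0.275 was 0.770 in thinned cells, and without the 5 highest cells of each library 1 UMI was left in APOE4 and 12 in APOE2. Merged by lineage, the ratio was 1.43 [1.38, 1.48] in monocytes and macrophages and 0.871 [0.828, 0.915] in dendritic cells. The dendritic class merged cDC 1, cDC 2, Migratory DCs and pDCs, and left out Monocytic DCs. Its pDCs, with 205 APOE4 cells and 111 APOE2 cells, had only 23.0 CPM in APOE4 and 4.49 CPM in APOE2. The merged ratio thus mixes the labels' levels with their parts of the class, and does not show a lower level in dendritic cells as such.

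The cell-level pattern of Cxcl16 differed from that of Cxcl9. In Migratory DCs 82.3% [74.9, 88.2] of thinned APOE4 cells and 73.8% [66.8, 80.0] of APOE2 cells held it, and without thinning 93.8% in APOE4 and 94.6% in APOE2. Mø cluster 1 had thinned shares of 71.4% [65.3, 77.0] in APOE4 and 57.7% [53.2, 62.2] in APOE2. Among labels of at least 50 cells in each library, the lowest Cxcl16 level was that of NK cluster 2 in APOE4, with 4 of 617 thinned cells or 0.648% [0.177, 1.65], and of G-MDSC 1 in APOE2, with 0 of 100, which at 3 counts allows up to 3%. Their median depths were 3817 UMIs in APOE4 and 1704 in APOE2, against 7626 in APOE4 Migratory DCs and 9131 in APOE2 Migratory DCs. The top 10% of Migratory DCs held 23.2% of the label's Cxcl16 UMIs in APOE4 and 23.8% in APOE2. No cell held more than 37 Cxcl16 UMIs, whereas the highest Cxcl9 cell held 157 in APOE4 and 326 in APOE2.

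Cxcr3 was the receptor with the broader set of carriers, and its ratios within T cell labels had intervals that included 1. CD8+ T cells had 188 CPM in APOE4 and 229 CPM in APOE2, a ratio of 0.821 [0.657, 1.03], and CD4+ T cells 168 CPM in APOE4 and 155 CPM in APOE2, a ratio of 1.08 [0.870, 1.36]. NKT cells had 141 CPM in APOE4 and 120.5 CPM in APOE2. All 3 intervals of the ratio included 1. In APOE2 the levels of CD8+ and CD4+ T cells, with intervals of 187 to 277 CPM and 130 to 183 CPM, did not overlap. CD8+ T cells held 24.3% of Cxcr3 UMIs in APOE4 and 12.2% in APOE2, CD4+ T cells 14.6% in APOE4 and 16.3% in APOE2, and Diverse 13.4% in APOE4 and 14.6% in APOE2.

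NK cluster 1 had 78.8 CPM of Cxcr3 in APOE4 and 64.7 CPM in APOE2, and NK cluster 2 had 72.6 CPM in APOE4 and 81.5 CPM in APOE2. Their intervals overlapped in each library, which was not so for Cxcl10. Plasmacytoid dendritic cells, known for type I interferon, had 66.5 CPM in APOE4 and 78.6 CPM in APOE2, and 4 of 4 of their markers were seen in each library. cDC 1 had 25.8 CPM in APOE4 and 46.2 CPM in APOE2, a ratio of 0.559 [0.357, 0.853], the only label of the 15 whose interval lay below 1. Cells with T or NK markers made up 7.32% of APOE4 pDCs and 9.01% of APOE2 pDCs and held 17.7% of the Cxcr3 UMIs in APOE4 pDCs and 15.7% in APOE2 pDCs. In cDC 1 such cells made up 17.6% in APOE4 and 16.0% in APOE2 and held 6.67% of the UMIs in APOE4 and 15.6% in APOE2. Of 15 labels, 3 were at least 2-fold higher in APOE4 (B cells, Mø cluster 2 and cDC 2), each with 12 to 24 UMIs in APOE4 and 4 to 9 in APOE2. Of these UMIs, cells with T or NK markers held 12 of 12 in APOE4 and 6 of 9 in APOE2 Mø cluster 2, 10 of 13 in APOE4 and 6 of 7 in APOE2 cDC 2, and 8 of 24 in APOE4 and 0 of 4 in APOE2 B cells. Over the 15 labels, a median of 3.52% of all genes were at least 2-fold higher, and in B cells 12.9%.

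Thinned shares of cells with Cxcr3 were 25.2% [21.4, 29.4] in APOE4 CD8+ T cells and 29.7% [21.4, 39.2] in APOE2 CD8+ T cells, and 46.3% in APOE4 and 53.1% in APOE2 without thinning. CD4+ T cells had 20.5% in APOE4 and 18.4% in APOE2, NKT cells 20% in APOE4 and 17.1% in APOE2, and pDCs 11.3% in APOE4 and 9.91% in APOE2. Stromal cells in APOE4 and G-MDSC 1 in APOE2, the lowest labels of at least 50 cells in each library, had 0 of 75 cells and 0 of 100 cells with it, which at 3 counts allows shares of up to 4% and 3%. Median depth was 14184 UMIs in those Stromal cells and 1704 in those G-MDSC 1 cells, against 3456 in APOE4 CD8+ T cells and 3530.0 in APOE2 CD8+ T cells. Cells with Cxcr3 held a median of 1 UMI of it in each of these labels, so the counts are sparse.

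Cxcr6 was more restricted. CD8+ T cells held 46.5% of its UMIs in APOE4 and 37.5% in APOE2, at levels of 778 CPM in APOE4 and 642 CPM in APOE2, a ratio of 1.21 [1.07, 1.38]. It had rank 4 by fold among 3570 genes in that label, after Gzmk, Themis and Cd8a, so it may have helped to draw the label. CD4+ T cells held 15.4% in APOE4 and 22.8% in APOE2, at 384 CPM in APOE4 and 197 CPM in APOE2, a ratio of 1.95 [1.63, 2.33] that was 2.06 without the shared barcodes. Diverse held 19.4% in APOE4 and 14.5% in APOE2, at 175 CPM in APOE4 and 44.3 CPM in APOE2, a ratio of 3.94 [3.22, 4.86] that was 2.09 in thinned cells. The gap was widest in Ki67+ CD8+ T cells, with 226 CPM in APOE4 and 29.7 CPM in APOE2, a ratio of 7.63 [4.87, 12.6] from 221 UMIs in APOE4 and 21 in APOE2, or 15.3 without the 5 highest cells of each library, from 154 UMIs in APOE4 and 7 in APOE2. NKT cells had 94.6 CPM in APOE4 and 123 CPM in APOE2, with an interval that included 1. NK cluster 2 was lower, with 14.3 CPM in APOE4 and 29.9 CPM in APOE2, a ratio of 0.478 [0.290, 0.791] that became 1.11 in thinned cells.

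**Figure D4:**
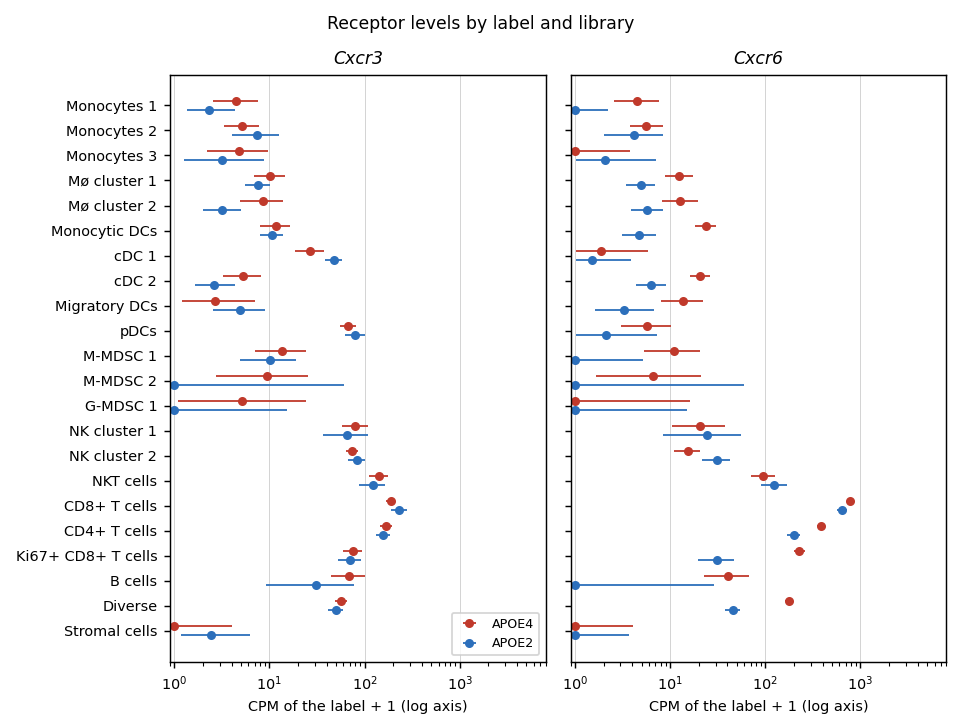
Levels of Cxcr3 and Cxcr6 (horizontal axis, CPM of the label plus 1, log scale) in 22 labels, for the APOE4 library (red, upper point of each pair) and the APOE2 library (blue, lower point), with exact Poisson 95% intervals. Cxcr3 points of the T, NK and pDC labels lie side by side in both libraries, and Cxcr6 peaks in CD8+ T cells at 778 CPM in APOE4 and 642 CPM in APOE2.

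The T cell labels did not hold the same mix of cells in both libraries. Of the cells labelled CD8+ T cells, 93.3% of 477 in APOE4 and 44.2% of 113 in APOE2 had a UMI of Cd8a or Cd8b1 and none of Cd4, and 2.94% in APOE4 and 43.4% in APOE2 had Cd4 and neither Cd8 gene. In the cells with Cd8 UMIs and no Cd4, Cxcr6 stood at 797 CPM in APOE4 and 669 CPM in APOE2, a ratio of 1.19 [0.995, 1.44] whose interval included 1. Cxcr3 stood at 185 CPM in those APOE4 cells and 283 CPM in those APOE2 cells, a ratio of 0.655 [0.491, 0.889] from 315 UMIs in APOE4 and 55 in APOE2. In the CD4+ label, Foxp3, the lineage factor of regulatory T cells, was seen in 38.9% of 303 APOE4 cells and 59.1% of 237 APOE2 cells. Cells without Foxp3 held most Cxcr6, 621 CPM in APOE4 and 462 CPM in APOE2, a ratio of 1.34 [1.11, 1.64], and cells with it 111 CPM in APOE4 and 56.2 CPM in APOE2, a ratio of 1.97 [1.27, 3.11]. Only 43.6% of the CD4+ label's APOE4 cells and 45.1% of its APOE2 cells had Cd4 and neither Cd8 gene. These cells held 108 of the label's 462 Cxcr6 UMIs in APOE4 and 32 of 177 in APOE2. Their levels were 200 CPM in APOE4 and 71.7 CPM in APOE2, a ratio of 2.79 [1.87, 4.28]. The genes that set the CD4+ label most apart by fold began with Il17a and Cd163l1, the second a listed gamma delta T cell marker, and included Foxp3. Whether gamma delta T cells held the label's other Cxcr6 UMIs was not tested. All these splits are read from detected UMIs, so a cell without a UMI may still express the gene. The name of the Ki67+ CD8+ label covered only part of its cells in APOE4 and went against its markers in APOE2. Its Cd8 genes summed to 644 CPM in APOE4 and 55.1 CPM in APOE2, beside neutrophil markers at 6372 CPM in APOE4 and 5884 CPM in APOE2. Cd4 and neither Cd8 gene was seen in 16.2% of its APOE4 cells and 31.4% of its APOE2 cells. A T marker was seen in 94.3% of its APOE4 cells with Cxcr6 and 51.3% without it, and in 60% and 63.4% in APOE2. An NK marker was seen in 74.3% of its APOE4 cells with Cxcr6 and 64.1% without it, and in 80% and 46.3% in APOE2. Only 10 APOE2 cells of this label held Cxcr6. Of that label, 41.9% of 74 APOE4 cells and 7.84% of 51 APOE2 cells had Cd8 and no Cd4 UMIs, and 205 of its 221 Cxcr6 UMIs in APOE4 lay in those 31 cells.

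Thinned shares of cells with Cxcr6 were 61.0% [56.5, 65.4] in APOE4 CD8+ T cells and 46.8% [37.3, 56.6] in APOE2 CD8+ T cells, and 81.1% in APOE4 and 67.3% in APOE2 without thinning. CD4+ T cells had 29.5% [24.3, 35.0] in APOE4 and 15.8% [11.3, 21.2] in APOE2. G-MDSC 1, among labels of at least 50 cells in each library 1 of 3 without a Cxcr6 UMI in APOE4 and 1 of 4 in APOE2, had 0 of 103 cells in APOE4 and 0 of 100 in APOE2, which at 3 counts allows up to 2.91% and 3%. Of 11 labels with a ratio, 6 were at least 2-fold higher in APOE4 and 1 lower. Over these labels, a median of 3.3% of all genes (from 1.92% to 4.99%) were at least 2-fold higher. In NK cluster 2, the lower label, 2.01% of all genes were at least 2-fold lower. Of the 6 higher labels, 4 were myeloid. In those, Cxcr6 lay mostly in cells that also held T or NK markers: 61 of 61 UMIs in APOE4 cDC 2 and 22 of 23 in APOE2 cDC 2, 54 of 55 in APOE4 and 16 of 16 in APOE2 Monocytic DCs, 25 of 30 in APOE4 and 21 of 21 in APOE2 Mø cluster 1, and 18 of 19 in APOE4 and 20 of 20 in APOE2 Mø cluster 2. Without the 5 highest cells of each library, cDC 2 kept 22 Cxcr6 UMIs in APOE4 and 1 in APOE2, and Monocytic DCs 27 in APOE4 and 4 in APOE2. Cells with such markers made up 22.1% of APOE4 cDC 2 and 18.0% of APOE2 cDC 2. Nearly all Diverse cells, 98.9% in APOE4 and 96.7% in APOE2, held a T or NK marker, while the 6 macrophage markers summed to 3250 CPM there in APOE4 and 4470 CPM in APOE2. Removing the 5% of cells with the highest doublet score took 42.2% of Diverse in APOE4 and 36.5% in APOE2. Whether 2 cells shared a droplet was not tested.

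The genes of an axis were also read together in single thinned cells. In CD8+ T cells, Cxcr3 and Cxcr6 occurred together in 71 of 472 APOE4 cells, where the product of their shares gives 72.6, and in 17 of 111 APOE2 cells, where it gives 15.5. CD4+ T cells held both in 10 of 292 APOE4 cells, where the product gives 17.7, and in 6 of 228 APOE2 cells, where it gives 6.63. In Monocytes 2, Cxcl9 and Cxcl10 occurred together in 109 of 526 APOE4 cells (product 97.4) and in 17 of 205 APOE2 cells (product 16.4). In cDC 2 the counts lay above the product in both libraries, with 22 of 290 APOE4 cells against 10.3 and 7 of 410 APOE2 cells against 0.805. Mø cluster 1 did likewise, with 16 of 245 APOE4 cells against 9.44 and 4 of 478 APOE2 cells against 1.05. So did Diverse, with 29 of 267 APOE4 cells against 19.0 and 2 of 208 APOE2 cells against 1.15. The APOE2 counts are sparse. Cxcl9 and Cxcl16 occurred together in 53 of 245 APOE4 Mø cluster 1 cells (product 48.6) and in 18 of 478 APOE2 cells (product 12.1).

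To set the labels' levels beside their sizes, each library's level was recomputed with the other's make-up, that is, the part of all UMIs in each label. With APOE4 levels and APOE2 make-up, Cxcl9 came to 324 CPM, 3.61 times the measured APOE2 level, and with APOE2 levels and APOE4 make-up to 139 CPM, 1.55 times it. For Cxcl10 these figures were 2.64 times and 1.83 times, and for Cxcr6 2.20 times and 2.48 times. Cxcr3 came to 1.03 times with APOE4 levels alone and 1.80 times with APOE4 make-up alone, against a measured 1.75 times. Cxcl16 came to 1.26 times with APOE4 levels and 0.846 times with APOE4 make-up. The make-up includes labels such as Monocytes 2 that these genes may have helped to draw, so level and make-up cannot be taken as independent.

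**Figure D5:**
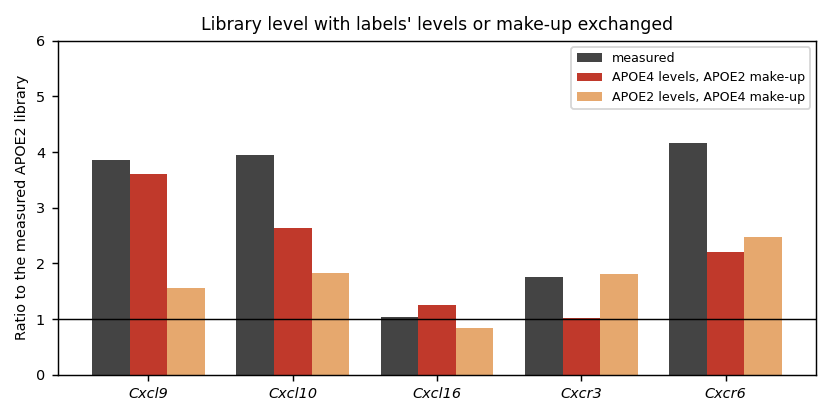
Ratio to the measured APOE2 level (vertical axis) of the measured APOE4 level (dark grey), of APOE4 label levels with APOE2 make-up (red) and of APOE2 label levels with APOE4 make-up (orange), for each gene. The line marks 1. For Cxcr3 the red bar is at 1.03 and the orange bar at 1.80, whereas for Cxcl9 the red bar, 3.61, is the higher.

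Likeness to other genes was described over 38 points, 19 labels in each of the 2 libraries, as Pearson's r of log2(CPM + 10) among 10704 genes. Points of a library share its depth and pool, and labels were drawn from the same genes, so no p is given. Cxcr6 was most like the CD3 gene Cd3g (r = 0.960), Gm8369, Cd3e, Ubash3a and Bcl11b. Cxcr3 was most like S1pr4 (r = 0.948), a lymphocyte receptor for sphingosine-1-phosphate, then Grap, Ptprcap, Sept1 and Jakmip1. Cxcl10 was most like the antiviral interferon-stimulated gene Ifit2 (r = 0.876), followed by Xaf1, Ifih1, Phf11d and Ifit3. Cxcl9 was most like Adap2os (r = 0.854), Adap2, Batf2, Slamf8 and Spon1, and Cxcl16 most like the MHC class II gene H2-Eb1 (r = 0.919), Htr7, Aif1, H2-Aa and Adap2. Among the members themselves, Cxcl9 had r = 0.811 with Cxcl16 and 0.612 with Cxcl10, and Cxcr3 had r = 0.803 with Cxcr6.

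Other genes of the axes were taken from lists of 43 genes on ligand processing, ligand induction, receptor transcription factors, receptor signalling and other chemokines that recruit lymphocytes, of which 39 were matched by symbol. Over all annotated cells 6 of the 39 were at least 2-fold higher in APOE4 and 1 was at least 2-fold lower, with a median log2 ratio of 0.16, beside 0.02 over all genes. The background of 4.51% higher and 4.03% lower applies here too. Of the 10 induction genes, Ifng, the interferon gamma gene, stood at 58.0 CPM in APOE4 and 8.68 CPM in APOE2, a ratio of 6.68 [5.95, 7.52]. Irf1, a transcription factor that interferon induces, stood at 236 CPM in APOE4 and 97.7 CPM in APOE2, a ratio of 2.41 [2.32, 2.51]. Genes of this list within 2-fold included the receptor genes Ifngr1 (1.16) and Ifngr2 (1.08) and the inflammatory cytokine Tnf (0.986).

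Within labels, Irf1 was at least 2-fold higher in APOE4 in 12 of 24 and at least 2-fold lower in none. Ifng was highest in CD8+ T cells, at 531 CPM in APOE4 and 119 CPM in APOE2, a ratio of 4.47, and it was at least 2-fold higher in 8 of 10 labels. The 8 included Mø cluster 1, cDC 2 and Diverse. In APOE4, 14.3%, 22.1% and 98.9% of their cells held a T or NK marker, and in APOE2 6.65%, 18.0% and 96.7%. Whether Ifng lay in those cells was not tested. NK cluster 1 had 264 CPM of Ifng in APOE4 and 64.7 CPM in APOE2, while NK cluster 2 had 93.2 CPM in APOE4 and 133 CPM in APOE2. Over all listed genes and labels, 12.3% of 732 pairs were at least 2-fold higher and 6.28% at least 2-fold lower, beside 3.93% and 3.27% of all genes and labels.

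Among processing genes and other ligands, Pf4 (platelet factor 4, also a CXCR3 ligand in humans) ran against Cxcl9 and Cxcl10. It stood at 188 CPM in APOE4 and 825 CPM in APOE2, a ratio of 0.227 [0.222, 0.233], and was at least 2-fold lower in 11 of 12 labels. Mø cluster 1 had 687 CPM of Pf4 in APOE4 and 1999 CPM in APOE2, and Monocytes 1 had 8.43 CPM in APOE4 and 569 CPM in APOE2. Adam10, the CXCL16 protease, had 71.3 CPM in APOE4 and 80.1 CPM in APOE2, and Dpp4, which trims CXCR3 ligands, 49.2 CPM in APOE4 and 42.7 CPM in APOE2.

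Of 7 receptor transcription factors, Tbx21, the T-box factor known to drive Cxcr3, stood at 33.6 CPM in APOE4 and 10.5 CPM in APOE2, a ratio of 3.19 [2.85, 3.57]. Its relative Eomes stood at 37.7 CPM in APOE4 and 11.9 CPM in APOE2, a ratio of 3.16 [2.84, 3.52]. Inside CD8+ T cells the ratios were 1.63 for Tbx21 and 1.45 for Eomes, and inside NK cluster 2 they were 1.33 and 1.39. Tbx21 was at least 2-fold higher in 4 of 10 labels, among them CD4+ T cells at 2.57, Mø cluster 1 and cDC 2. Whether Tbx21 in those myeloid labels lay in cells with T or NK markers was not tested. None of the 6 receptor signalling genes measured, such as the G protein subunit Gnai2 (0.921), passed 2-fold. Of 12 other chemokines and receptors, Ccl5, which attracts T cells, was at 1828 CPM in APOE4 and 720 CPM in APOE2, a ratio of 2.54 [2.50, 2.58]. Ccl2, the main monocyte attractant, was at 178 CPM in APOE4 and 352 CPM in APOE2, a ratio of 0.505 [0.490, 0.520].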

How the data were processed

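Leukocytes of APOE4 and APOE2 mice were read as 1 library each. The authors deposited raw UMI counts, made with Cell Ranger 3.0.1 per the file headers. Per the submitters' processing notes the build is mm10 and Seurat 3.0.2 was among the tools. Their deposited table gives each cell's library, label, UMI count and percent of mitochondrial UMIs, and per the file headers its clusters are those of an integrated assay at resolution 0.8. How doublets were treated, and strand use in counting, was not stated in any source used here.

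The authors' labels were used as given, and cells outside the annotation were left out. UMIs were summed per label and library and divided by the label's total, giving CPM. Levels carry exact Poisson 95% intervals, ratios (APOE4 over APOE2) exact conditional binomial intervals, shares Clopper-Pearson intervals, and the upper limit for a share of 0 is 3 counts of the cells. Ratios need 20 cells in each library and 20 UMIs in the label over both, and a count of 0 was set to a floor of 3 counts. A ratio of 2 or more, or 0.5 or less, is called at least 2-fold higher or lower. Thinning used 1500 UMIs per cell and seed 0. PCR copies are removed by the UMIs, and intervals do not cover differences between pools. Python 3.11.15, numpy 2.4.6, scipy 1.17.1 and scikit-learn 1.9.0 (doublet scores) were used, and the ratio and thinning steps were tested on simulated counts.

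Genes named are the 5 members, the listed genes of the axes, and the 5 genes most like each member over labels of at least 50 cells and genes of at least 200 UMIs. Labels named in full are those with the 3 largest parts of a gene's UMIs or the 3 highest levels, and further labels were named after their values were seen. Counts over the lists cover all listed genes, and the values of some are not reported here. Members and lists were chosen with earlier results of these data known. Alternatives covered scaling, thinning, mitochondrial and doublet filters, weighting, the highest cells, free RNA and count minimums.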

Additional observations from a re-analysis of the deposited data

Results flagged for a closer look

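For 3 genes the labels went in opposite directions under the same comparison, and none of these differences between labels was tested, since each rests on 1 library per genotype. Cxcl16 had a ratio (APOE4 over APOE2) of 5.11 in pDCs, from 39 UMIs in APOE4 and 4 in APOE2, and of 0.275 in Stromal cells, from 10 and 41 UMIs. The Stromal ratio lay within 2-fold in thinned cells. Cxcr3 had a ratio of 3.48 in Mø cluster 2, from 12 UMIs in APOE4 and 9 in APOE2, where cells with T or NK markers held 12 of the 12 and 6 of the 9, and of 0.559 in cDC 1, from 30 and 90 UMIs. Cxcr6 had a ratio of 7.63 in Ki67+ CD8+ T cells, from 221 and 21 UMIs, and of 0.478 in NK cluster 2, from 36 and 33 UMIs. The NK cluster 2 ratio changed direction in thinned cells, so the opposite directions of Cxcr6 depend on that setting. The mix of cells in the Ki67+ CD8+ label moved with the Cxcr6 value, and its part was not tested: 41.9% of the APOE4 cells and 7.84% of the APOE2 cells of that label had Cd8 and no Cd4 UMIs.

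The 304 APOE4 barcodes and 398 APOE2 barcodes that the authors left without a label also held the genes. They had 92 Cxcl9 UMIs in APOE4 and 34 in APOE2, 362 Cxcl10 UMIs in APOE4 and 215 in APOE2, 116 Cxcl16 UMIs in APOE4 and 337 in APOE2, 15 Cxcr3 UMIs in APOE4 and 22 in APOE2, and 20 Cxcr6 UMIs in APOE4 and 41 in APOE2. Cxcl10 stood at 278 CPM in these APOE4 barcodes and 95.6 CPM in these APOE2 barcodes.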

How the results depend on the processing

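No paired analysis was possible because each genotype has 1 library, and no replicate could be left out for the same reason. All values are log2 ratios (APOE4 over APOE2) over annotated cells unless counts are named. Cxcl9 (1.95) came to 1.89 in thinned cells, 1.89 without the cells of highest doublet score, 1.84 as a mean over cells, 2.33 without the 5 highest cells and 2.60 with equal label weight. Cxcl10 (1.98) came to 1.68 thinned, 1.84 as a mean over cells, 2.07 without the 5 highest cells, 2.03 after free RNA was subtracted and 1.89 with equal label weight. Cxcr6 (2.06) came to 1.67, 1.75 and 1.44 under thinning, cell means and equal label weight, and Cxcr3 (0.81) to 0.18 under equal label weight. Cxcl16 (0.05) changed sign, with -0.12 thinned and -0.10 as a mean over cells, and had 0.11 in cells under 5% mitochondrial UMIs and 0.32 with equal label weight. Leaving out Monocytes 2 or Diverse was chosen after seeing the data: without Monocytes 2, Cxcl9 had 2.09, Cxcl10 2.05 and Cxcl16 -0.036, and without Diverse Cxcl16 had -0.026. Leaving out shared barcodes, also chosen then, moved none of the 5 values outside its interval and put Cxcr6 in CD4+ T cells past 2-fold, for 7 labels against 6.

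Labels at least 2-fold higher numbered 9 for Cxcl10 (against 15) where 100 cells were required, which leaves fewer labels. For Cxcl16 they were 1 thinned, 2 with cell means and 2 without the 5 highest cells (against 4), and in thinned cells 1 for Cxcr3 (against 3) and 3 for Cxcr6 (against 6). With at least 100 UMIs per label, 55 pairs of listed gene and label were higher (against 90) and 21 lower (against 46), since fewer pairs enter. Cxcr6 in NK cluster 2 changed sign in thinned cells, to 0.15. Of 567 values by label and setting, 537 kept their direction and 461 stayed inside the counting interval. Other causes were not tested. Removing the 5 cells highest in a gene tends to take a larger part of its UMIs in the library where fewer cells hold it, also where the label is larger there. In Monocytes 1, 99 of 384 APOE4 cells and 15 of 433 APOE2 cells held Cxcl9, so the step can widen a ratio by itself. Sparse counts, such as a median of 1 Cxcr3 UMI per positive cell, limit what the receptor values can show.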
